A study of Mus musculus with 4 samples.

Results

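Rotenone-treated and vehicle-treated dermal fibroblasts of wildtype C57BL/6 mice were compared by ATAC-seq, which reads out open chromatin from where the enzyme Tn5 can cut and tag the DNA. Both sides were 1 library of Sod2+/+ cells. The treated library was labelled rotenone at 250 µM, and its partner was labelled vehicle, without the name of the solvent. Another library, of untreated Sod2+/+ control fibroblasts, served as a measure of how much 2 libraries without rotenone differ. All 3 are labelled 100 days; the labels do not say what the days count, how long the cells were treated, or how many mice the cells came from. The series holds 4 libraries, and the fourth, from Sod2-/- cells, belongs to neither side and was not used here.

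The regions compared were chosen by rank. Each deposited peak list was ordered by the authors' −log10 p, with ties ordered by fold enrichment, and its 60000 highest ranked peaks were kept, of 340240 in vehicle and 347438 in rotenone. A peak was matched when it overlapped any of the partner's 60000 by at least 1 bp. The 30000 highest ranked peaks of a list are called strong, and those of them without a match are called rotenone-only or vehicle-only. With 1 library a side no difference has a replicate check and no p-value is given. Intervals are 95% Wilson intervals and cover counting error only.

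Rotenone blocks respiratory complex I, the enzyme through which electrons of NADH enter the mitochondrial respiratory chain, and so limits oxidative ATP production and can raise superoxide in the mitochondrial matrix. Sod2, the manganese superoxide dismutase, removes that superoxide. Dermal fibroblasts make the collagens and growth factors of the skin, and the series as a whole concerns the AP-1 subunit JunB in aging skin fibroblasts. Open chromatin in such cells lies at gene starts, which are mostly open in every cell type, and at distal elements, which vary more between cell states.

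Promoters that lay under peaks of 1 side are shown first, since they are the places where such a peak falls on a known start of transcription. The sequences are from RefSeq (GRCm38.p6, the assembly behind mm10), read 5′ to 3′ on the gene's strand, and each covers 250 bases before and 50 after a listed start. Capitals mark matches, on either strand, to the GC box (GGGCGG), the CCAAT box (CCAAT), the cAMP response element (TGACGTCA), the AP-1 element (TGANTCA), the TEAD element (CATTCC) and the antioxidant response element (TGACNNNGC). A match to the last one also holds an AP-1 match when TCA follows TGAC. The first sequence lay partly under the best ranked vehicle-only peak at a gene end. The other 3 lay partly under the best ranked rotenone-only peaks of at least 150 bp that covered part of a listed promoter. Capitals were set over the full 300 bases, also outside the peak. At Kyat1 the peak covered the last 114 bases, without the CCAAT and antioxidant matches. At Sec63 it covered the last 269, without the CCAAT match, and at Pbrm1 the last 207.
Syt1, vehicle-only, chr10:109010926-109011225, minus strand: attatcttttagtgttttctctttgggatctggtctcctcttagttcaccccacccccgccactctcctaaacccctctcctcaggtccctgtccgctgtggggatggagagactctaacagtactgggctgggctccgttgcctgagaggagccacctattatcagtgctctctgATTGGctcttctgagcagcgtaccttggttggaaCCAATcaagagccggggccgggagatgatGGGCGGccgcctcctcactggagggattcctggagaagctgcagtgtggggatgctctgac
Sec63, rotenone-only, chr10:42761246-42761545, plus strand: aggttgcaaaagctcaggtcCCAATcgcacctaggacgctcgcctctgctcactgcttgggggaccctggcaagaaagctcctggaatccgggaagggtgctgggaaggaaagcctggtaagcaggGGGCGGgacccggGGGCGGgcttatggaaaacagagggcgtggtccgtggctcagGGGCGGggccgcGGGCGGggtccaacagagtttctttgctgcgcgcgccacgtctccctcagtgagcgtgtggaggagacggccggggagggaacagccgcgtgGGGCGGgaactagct
Kyat1, rotenone-only, chr2:30205798-30206097, minus strand: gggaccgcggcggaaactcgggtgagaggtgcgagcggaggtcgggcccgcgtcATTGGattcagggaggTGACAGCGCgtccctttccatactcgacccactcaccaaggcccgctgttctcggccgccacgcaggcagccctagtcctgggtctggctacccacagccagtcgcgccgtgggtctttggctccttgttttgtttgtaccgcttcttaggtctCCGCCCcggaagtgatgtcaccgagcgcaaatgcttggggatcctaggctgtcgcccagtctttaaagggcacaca
Pbrm1, rotenone-only, chr14:31018888-31019187, plus strand: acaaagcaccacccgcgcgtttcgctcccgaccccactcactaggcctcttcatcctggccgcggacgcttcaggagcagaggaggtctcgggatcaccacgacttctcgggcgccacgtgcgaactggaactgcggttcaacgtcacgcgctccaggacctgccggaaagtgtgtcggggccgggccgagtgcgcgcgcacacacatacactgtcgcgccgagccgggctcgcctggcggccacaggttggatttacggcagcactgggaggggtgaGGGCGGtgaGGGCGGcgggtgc
Syt1 encodes the synaptic vesicle calcium sensor synaptotagmin 1, and the peak at chr10:109010925-109011116 covered 191 bases of its promoter. Its fold enrichment, the authors' ratio of the signal in a peak over the local background, was 10.5 in vehicle, 3.38 in rotenone and 8.17 in the untreated control. Sec63 encodes a component of the protein import channel of the endoplasmic reticulum, and the peak over its promoter had a fold of 3.82 in vehicle, 5.92 in rotenone and 3.60 in control. At Kyat1, which encodes a kynurenine aminotransferase, the folds were 3.58 in vehicle, 5.91 in rotenone and 3.38 in control. The promoter of Pbrm1, a chromatin remodelling subunit, lies beside an end of Gnl3, a nucleolar GTP-binding protein gene, and 1 peak served both, with folds of 3.51 in vehicle, 5.65 in rotenone and 3.11 in control. Each of these 4 promoters thus had a peak in all 3 libraries, and it was the strength that set it on 1 side.

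The libraries differed in overall enrichment before any region was compared. Among the 60000 peaks the median fold was 5.39 in vehicle, 4.56 in rotenone and 5.10 in control, and the median width 253, 200 and 274 bp. Peaks narrower than 150 bp made up 25.7% of the 60000 in vehicle, 35.1% in rotenone and 21.0% in control. Read depth is unknown, and the part of this lower and narrower signal in the results below was not tested. At the edge of the lists, the last vehicle peak kept and the first one left out had folds of 4.01 and 3.89, and the rotenone peaks 3.58 and 3.58. Fibroblast markers had a peak within 1000 bp of a gene end for 14 of 24 genes in vehicle, 12 in rotenone and 15 in control, Col1a1, Col1a2, Fap, Thy1, Twist1 and Vim among them in all 3. Of the other defining markers, Col3a1, Dcn, Lum, Prrx1 and Twist2 had none in any of the 3 libraries, and Pdgfra had one in control only.

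The strongest open regions were the same on both sides, and the sharing fell with rank. Of the 60000 rotenone peaks, 42661 (71.1%, 70.7 to 71.5) were matched in vehicle and 28.9% were not. In the other direction 42200 vehicle peaks (70.3%, 70.0 to 70.7) were matched in rotenone and 29.7% were not. Vehicle and control, measured the same way, left 16.7% of vehicle and 16.5% of control peaks unmatched. In the first 6000 ranks 99.9% of rotenone peaks were matched in vehicle. This share was 96.7% at ranks 12001 to 18000, 80.5% at 24001 to 30000 and 31.1% at 54001 to 60000. For vehicle peaks in control the same bins gave 99.8%, 99.8%, 96.7% and 43.7%. From rank 12001 on, the curves of the rotenone comparison thus lay below those of vehicle and control, by a margin that differed with rank. At ranks 36001 to 42000, 58.2% of rotenone peaks were matched in vehicle and 80.1% of vehicle peaks in control.

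**Figure D1:**
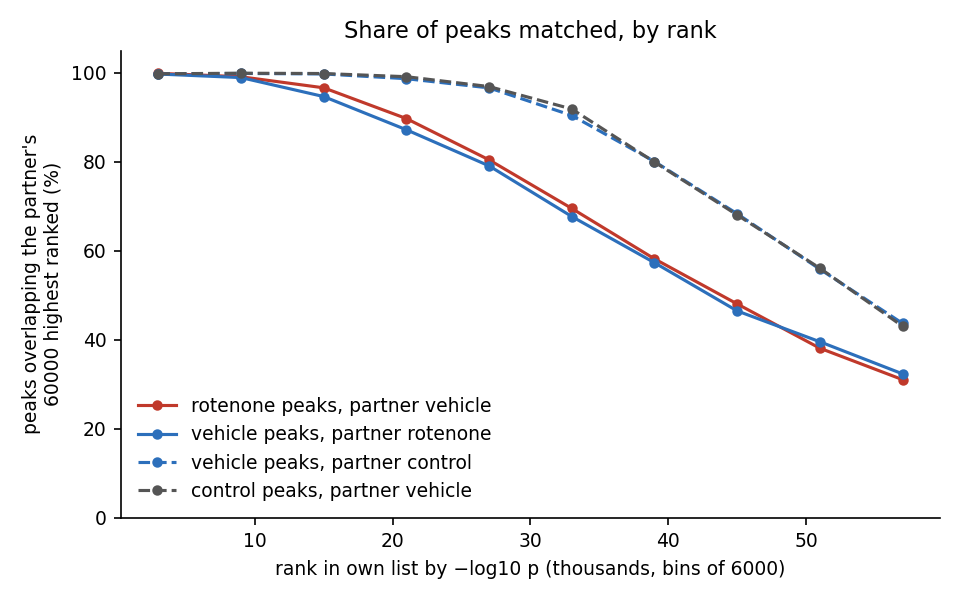
Share of peaks (y axis, %) that overlapped one of the partner library's 60000 highest ranked peaks, by rank in the peak's own list (x axis, in units of 1000 ranks, bins of 6000 peaks), with 1 point a bin. The solid lines are rotenone and vehicle, the dashed lines vehicle and untreated control; from rank 12001 on the solid lines lie visibly below the dashed ones.

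Most unmatched peaks had a weaker counterpart rather than none. Of the 17339 rotenone peaks without a match, 12406 (71.5%) overlapped a vehicle peak below rank 60000, at a median rank of 96253, and 4933 overlapped no vehicle peak at all. Of the 17800 unmatched vehicle peaks, 13712 (77.0%) overlapped a weaker rotenone peak, at a median rank of 106714, and 4088 overlapped none. Unmatched peaks were also narrow: 67.8% of those of rotenone and 51.3% of those of vehicle spanned under 150 bp, against 21.8% and 14.9% of matched ones. Between vehicle and control the shares were similar, with 66.2% of unmatched vehicle and 50.2% of unmatched control peaks under 150 bp.

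Among strong peaks, 2042 (6.81%) were rotenone-only and 2413 (8.04%) vehicle-only. Vehicle against control gave 309 vehicle peaks (1.03%) and 254 control peaks (0.847%). Of the rotenone-only peaks 232 overlapped no vehicle peak of any strength, and of the vehicle-only peaks 283 overlapped no rotenone peak. The untreated control, which took no part in this choice, held 2220 of the vehicle-only peaks among its 60000 (92.0%, 90.9 to 93.0) and 730 of the rotenone-only peaks (35.7%, 33.7 to 37.9). Control peaks of any rank overlapped 2382 of the vehicle-only (98.7%) and 1867 of the rotenone-only peaks (91.4%). With 30000 peaks a list (strong 15000) the counts were 828 and 913, and with 120000 (strong 60000) they were 9369 and 9926. Regions that were vehicle-only were therefore mostly open in both libraries without rotenone, while 1312 rotenone-only regions were among the 60000 of neither.

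Peaks of 1 side lay in other places than the rest. Of strong rotenone peaks with a match, 26.9% lay within 1000 bp of the end of a coding gene (either end, start or finish), against 8.33% (7.20 to 9.60) of rotenone-only and 9.32% (8.23 to 10.6) of vehicle-only peaks. The contrast was also present at equal rank: between ranks 20001 and 30000 the shares were 19.3% of matched and 8.16% of unmatched rotenone peaks, and 20.1% and 9.46% of vehicle peaks. Restricted to the listed gene starts, which cover no gene on chromosomes 18 and Y, the shares were 24.3% of strong matched rotenone peaks, 5.82% of rotenone-only and 6.91% of vehicle-only peaks. The gene end share of rotenone-only peaks was 13.6% with 30000 peaks a list and 4.28% with 120000, and that of vehicle-only peaks was 16.7% when 50% of a peak had to be covered. Vehicle and control, both without rotenone, showed the same contrast. Gene ends held 11.97% (8.81 to 16.1) of strong vehicle peaks without a match in control, against 25.4% of those with one. For strong control peaks in vehicle these shares were 9.45% (6.43 to 13.7) and 25.7%. Gene ends were thus mostly shared, and the peaks of 1 side lay mostly inside genes or between them. This held in both comparisons and was not particular to rotenone.

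The 2 sides differed in how far from genes their peaks lay. More than 200000 bp from any coding gene lay 9.65% (8.44 to 11.005) of rotenone-only and 4.52% (3.76 to 5.42) of vehicle-only peaks, against 4.90% of strong matched rotenone and 4.68% of strong matched vehicle peaks. When the untreated control was the partner in place of vehicle, 9.52% (8.27 to 10.9) of the rotenone peaks without a match lay that far out. Inside genes but away from their ends lay 39.6% of rotenone-only and 45.5% of vehicle-only peaks. Rotenone-only peaks were narrow, with 54.7% under 150 bp against 39.2% of vehicle-only peaks. Between vehicle and control, strong peaks without a match were narrow more often, 79.9% of the 309 in vehicle and 62.2% of the 254 in control. Among the chromosomes other than Y, the share of strong peaks that were rotenone-only ran from 5.06% on chromosome 7 to 8.25% on X, and the vehicle-only share from 6.80% on chromosome 15 to 9.86% on chromosome 18.

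**Figure D2:**
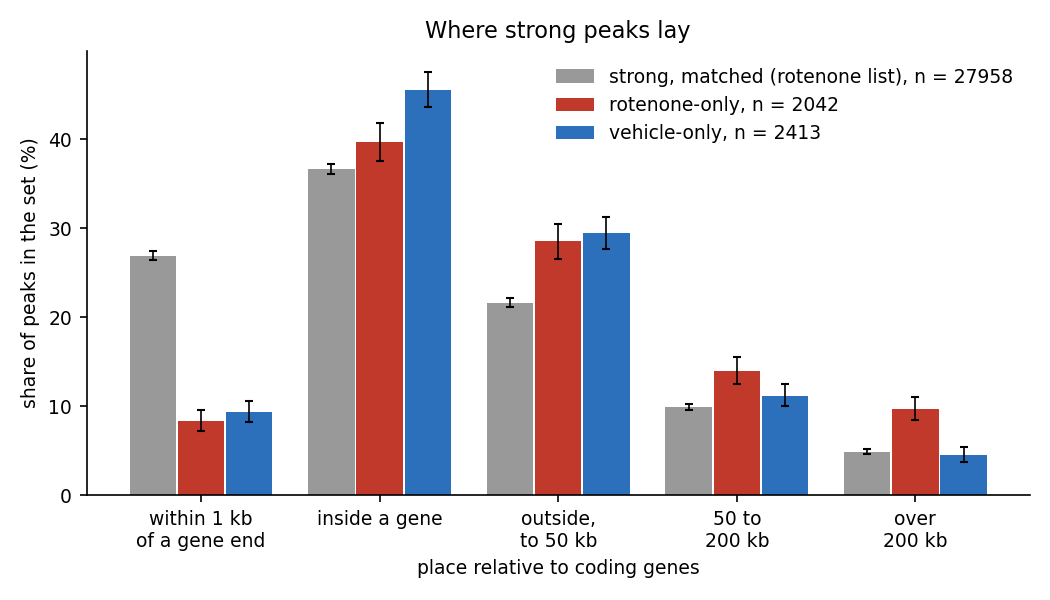
Share of strong peaks (y axis, %) in each place relative to coding genes (x axis), for 27958 matched rotenone peaks, 2042 rotenone-only and 2413 vehicle-only peaks; bars start at 0 and the lines are 95% Wilson intervals. Gene ends hold 26.9% of matched peaks and under 10% of those of either side, and the distance class over 200 kb holds 9.65% of rotenone-only and 4.52% of vehicle-only peaks.

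Genes with the most regions open in both libraries without rotenone and weak with it included Lrig3, Ctnna3, Smad3 and Akap13. Each strong peak was assigned to the coding gene that spans it or else to the gene with the nearest end, and the counts below are of vehicle-only peaks also present in the control list. Lrig3, a transmembrane relative of the EGF receptor inhibitor Lrig1, had 5 such regions among 26 strong vehicle peaks. The one inside it, at chr10:125994956-125995164, had a fold of 6.02 in vehicle and 6.43 in control and no peak in rotenone. The best ranked of the Lrig3 regions, 296668 bp away, had 7.72 in vehicle, 2.96 in rotenone and 6.06 in control. Ctnna3, which encodes an alpha catenin of adherens junctions, also had 5 of 12, of which 3 lay inside the gene. At its best ranked region, chr10:63424529-63424675, the folds were 7.59 in vehicle, 3.28 in rotenone and 5.66 in control.

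Smad3, which carries TGF-β signals to the nucleus, had 4 of 16, all between 387 and 861 bp wide. The best ranked of them, at chr9:63803203-63803664 and 45439 bp from the gene, had folds of 8.68 in vehicle, 3.18 in rotenone and 7.16 in control. Inside Smad3 the 861 bp peak had 5.42, 3.44 and 4.97 in the same order. Akap13, which encodes an anchoring protein of protein kinase A, and Sv2b, a synaptic vesicle glycoprotein, are neighbours on chromosome 7. They had 4 of 15 and 4 of 6, and together held all 8 such regions of the 1 Mb window from 75000001 to 76000000. At chr7:75575159-75575641 inside Akap13 the folds were 7.63 in vehicle, 3.25 in rotenone and 8.46 in control. Dad1, a subunit of the oligosaccharyltransferase that glycosylates proteins, had 4 of 8, led by a region 124340 bp away with 8.28 in vehicle, 3.06 in rotenone and 8.63 in control. Vehicle and control lie above rotenone in these regions by the way they were chosen.

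Foxk1, a forkhead repressor gene, had 4 of 17 (best region, chr5:142447990-142448446, 7.41 in vehicle, 3.34 in rotenone and 7.28 in control). Med13l, a Mediator subunit gene, had 4 of 24, and its region at chr5:118763509-118763608 had no peak in rotenone, with 6.78 in vehicle and 6.06 in control. For Uck2, a uridine and cytidine kinase gene, all 4 of 13 lay inside the gene, and for Cdh13, which encodes T-cadherin, all 4 of 11 did. Tenm4, a teneurin gene, had 4 of 20, of which 1, at chr7:95489806-95489919 and 681382 bp from the gene, had no rotenone peak. The other window with 8 such regions ran from 172000001 to 173000000 on chromosome 1. Its peaks were assigned among others to Vangl2, a planar polarity gene, Tagln2, an actin-binding protein gene, and Igsf8. Counts per gene were not adjusted for the number of peaks a gene holds, so the totals of strong peaks are given beside them. Over all strong vehicle peaks 8.04% were vehicle-only, and 2220 of the 30000 were vehicle-only and present in control. Tenm4 also had 2 rotenone-only peaks, and Lrig3 and Med13l had 1 each. Ctnna3, Dad1, Foxk1, Smad3, Uck2, Akap13, Sv2b and Cdh13 had none.

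Myc, the growth regulator, stood on both lists, with different regions on each side. Its 4 vehicle-only regions lay at 925 to 116406 bp from the gene. The closest, at chr15:61984232-61984600, had folds of 5.16 in vehicle, 2.74 in rotenone and 4.31 in control. The next ones, at chr15:62048937-62049089 and chr15:62049481-62049802, had 5.99 and 6.28 in vehicle, 3.11 and 3.49 in rotenone, and 5.95 and 5.80 in control. Its 4 rotenone-only regions absent from the control list lay farther out, at 187273 to 881226 bp. The one that ranked best, at chr15:62871532-62871643, had 3.35 in vehicle, 5.65 in rotenone and 3.19 in control. Strong peaks assigned to Myc numbered 14 in vehicle, of which these 4 were vehicle-only, and 16 in rotenone, of which 5 were rotenone-only; the others were matched.

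On the rotenone side, the genes with most regions were partly places of low enrichment. Macrod2, which encodes an enzyme that removes ADP-ribose from proteins, had 6 rotenone-only regions among 22 strong rotenone peaks, all inside the gene and absent from the control list. Its best ranked region, at chr2:142023683-142023736, was 54 bp wide and had folds of 3.30 in vehicle, 6.59 in rotenone and 3.70 in control. The 266 bp region at chr2:140549278-140549543 had 3.87, 4.70 and 3.27 in the same order. Gria1, an AMPA receptor subunit gene, had 3 of 8; at chr11:56930159-56930211 the fold was 6.88 in rotenone and 2.87 in control with no vehicle peak. Marchf4, a membrane ubiquitin ligase gene, had 3 of 4, all inside the gene, led by chr1:72449851-72450011 with 3.51 in vehicle, 6.04 in rotenone and 3.39 in control. Fank1, Mctp2 and Sema3d had 3 of 5, 3 of 17 and 3 of 7, with rotenone folds between 4.39 and 6.18. Mctp2 also had 2 vehicle-only peaks, and Macrod2 and Gria1 had 1 each, while Marchf4, Fank1 and Sema3d had none.

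Pisd, the mitochondrial phosphatidylserine decarboxylase gene, had 7 regions among 16 strong rotenone peaks, but their rotenone folds were only 2.51 to 2.92. In vehicle the folds of these 7 regions ranged from 1.75 to 2.38. Pisd also had 1 vehicle-only peak. Scaf8, Tmem267 and Alkbh8 had 4 of 15, 3 of 7 and 4 of 66, with lowest folds of 2.86, 3.01 and 1.23. These counts, and those of the genes above, are of rotenone-only peaks absent from the control list, 1312 of the 30000 strong rotenone peaks. Before that check Pisd had 9, Scaf8 7, Hnf4g 6 and Mctp2 4, and Alkbh8 had the same 4 of 66. Over all strong rotenone peaks 6.81% were rotenone-only before the check, and by that count Alkbh8 was no higher. The Alkbh8 region at chr9:3017086-3017166 had 1.31 in vehicle, 1.23 in rotenone and 1.33 in control. Hnf4g had 5 of 11. These 5 regions all lay 305871 to 507648 bp from the gene, at positions 3000332 to 3979670 on chromosome 3, and spanned at most 102 bp. These genes therefore lead by count with regions that were weak, short or far away.

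At gene ends, the best ranked rotenone-only peaks lay at Thbs1, Adamts1 and Ect2. A rotenone-only peak lay at a gene end in 170 cases, of which 93 were at least 150 bp wide and 67 overlapped one of the control's 60000. Over all rotenone-only peaks 35.7% did. The best ranked wide one lay at an end of Thbs1, which encodes the matricellular protein thrombospondin 1, at chr2:118127127-118127764. It spanned 638 bp and had folds of 3.40 in vehicle, 5.04 in rotenone and 2.85 in control. The vehicle and control values there belonged to peaks of 116 and 312 bp, in each case the better ranked of 2. Other peaks assigned to Thbs1 went both ways. At its other end, chr2:118111638-118111950, the folds were 4.04 in vehicle, 3.20 in rotenone and 3.11 in control. At chr2:118125258-118125507 inside the gene the folds were 4.13 in vehicle, 2.29 in rotenone and 3.67 in control, and at chr2:118110331-118110885, 1268 bp from the gene, they were 3.12, 4.17 and 3.30. Adamts1, a matrix protease gene, had 3.22 in vehicle, 6.83 in rotenone and 4.10 in control at chr16:85793429-85793668. Ect2, a gene needed for cytokinesis, had 2.43, 5.29 and 2.93 in the same order at chr3:27155037-27155252. The remaining ones, at Luc7l, Casq1, Zfp710 and Ksr1, had rotenone folds of 5.91 to 6.04 and vehicle folds of 3.54 to 3.97, and their control peaks, at 3.88 to 4.57, were among the 60000.

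Vehicle-only peaks at gene ends numbered 225, of which 161 were at least 150 bp wide and 206 overlapped a control peak. After Syt1 came Syndig1, a gene of synapse differentiation, with 8.64 in vehicle, 3.48 in rotenone and 5.99 in control at chr2:150004223-150004634. Mmp16, a membrane-bound matrix metalloprotease gene, had 8.19, 3.32 and 7.37 at chr4:17851750-17852251. The peak at Rnpc3, a gene of the minor spliceosome, had 5.58 in vehicle and 4.93 in control and no rotenone peak. At Armcx2, an armadillo repeat gene on the X chromosome, the folds were 7.998 in vehicle, 2.70 in rotenone and 7.39 in control. Fxyd1, which encodes a regulator of the sodium pump, had 7.57, 2.57 and 6.53. Since these peaks were picked for being strong on 1 side, the order of vehicle and rotenone at them is a description of the choice.

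**Figure D3:**
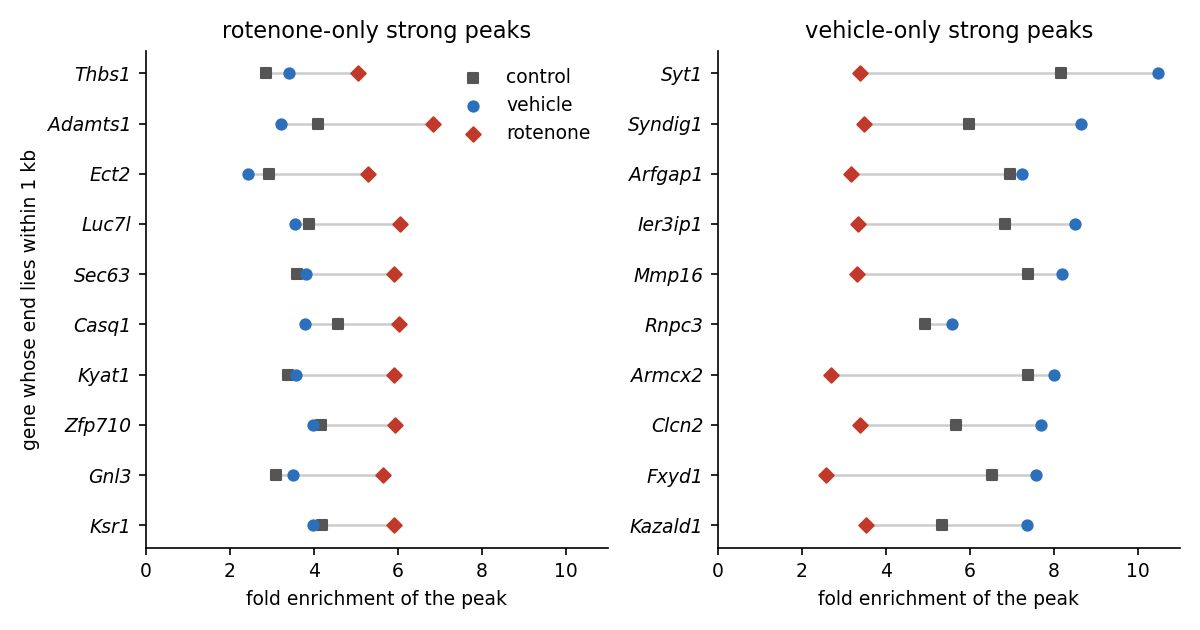
Fold enrichment (x axis) of the best ranked peak of each library at the 10 best ranked rotenone-only (left) and 10 vehicle-only (right) strong gene end peaks of at least 150 bp, by gene (y axis); circles are vehicle, diamonds rotenone, squares untreated control, 1 library each. The control lies nearer to rotenone than to vehicle at Syndig1 and Kazald1, and Rnpc3 has no rotenone point because no rotenone peak overlapped it.

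Peaks present on both sides were lower and narrower in rotenone. The overlapping peaks formed 42024 one-to-one pairs, and 75.9% of them had a lower fold in rotenone, with a median ratio of 0.865 (rotenone over vehicle). The width ratio had a median of 0.868, and 72.2% were narrower. Between vehicle and control the median fold ratio was 1.05 and the median width ratio 0.960, over 49624 pairs. Strong vehicle peaks overlapped 2 or more rotenone peaks in 5.82% of cases, and strong rotenone peaks overlapped 2 or more vehicle peaks in 1.58%. For vehicle peaks over control peaks this share was 5.15%, and for control over vehicle 3.79%. Rank moved by more than 20000 places in 12.6% of pairs, against 4.56% between vehicle and control.

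After centring on its median, the fold ratio showed which pairs departed from this general shift. In 1373 pairs (3.27%) rotenone was at least 1.5-fold higher and in 1819 (4.33%) at least 1.5-fold lower. Vehicle over control gave 0.951% higher and 0.506% lower. When only the 30467 pairs of similar width (within 1.5-fold) were kept, an alternative chosen after seeing the data, 820 (2.69%) were higher and 1260 (4.14%) lower. Gene end pairs sat slightly above the rest, with a median centred log2 ratio of 0.04 over 9690 pairs against -0.01 over the 32334 others; for vehicle over control these were 0.00 and 0.00. The middle of both distributions overlapped widely, and the rotenone comparison had the broader tails.

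**Figure D4:**
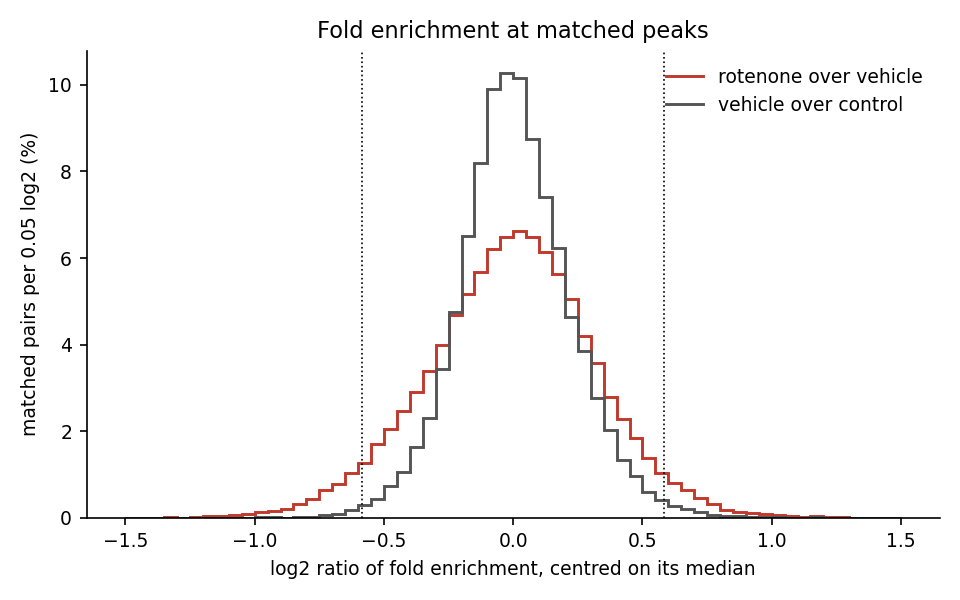
Share of matched pairs (y axis, % per 0.05 log2) by the log2 ratio of fold enrichment centred on its median (x axis), for rotenone over vehicle (42024 pairs) and vehicle over untreated control (49624 pairs); dotted lines mark 1.5-fold. The rotenone curve is lower in the middle and wider, with 3.27% of pairs above the upper line and 4.33% below the lower one.

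The largest departures were named among pairs that were strong on both sides and at least 200 bp wide on both, 16509 in all. Of the 10 highest, 7 had a vehicle peak more than 2 times as wide as the rotenone peak. At L3mbtl4, for example, 887 bp in vehicle met 254 bp in rotenone, with folds of 5.50 and 11.1, and at the start of E2f7, a repressor of cell cycle genes, 777 bp met 262 bp with 6.52 and 12.6. The deposited fold belongs to the whole peak, so pairs of unlike width were not compared like for like. Mthfd1, a folate enzyme gene, had peaks of similar width, 219 and 223 bp, at chr12:76264703-76264921, with folds of 6.02 in vehicle, 11.9 in rotenone and 5.51 in control. Rab1b, which encodes a GTPase of transport from the endoplasmic reticulum to the Golgi, had 5.98, 10.8 and 7.99 at its start. Mthfd1 and Rab1b were the only genes of these 10 that also stood among the 10 highest pairs of similar width. That set also held Kitl, the gene of stem cell factor, which dermal fibroblasts secrete. Its peak at chr10:99910016-99910328, 105443 bp from the gene, had 6.34 in vehicle, 10.6 in rotenone and 7.44 in control. At Jarid2, a Polycomb cofactor gene, the folds were 6.86 in vehicle, 11.3 in rotenone and 10.4 in control. The control value belonged to a 121 bp peak, the better ranked of 2, beside 514 bp in vehicle and 515 bp in rotenone. It was therefore not compared like for like.

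Among the 10 lowest pairs, 3 were broad low regions at Ccnh, Myo3a and Tyrp1, where rotenone peaks 9144 to 12036 bp wide had folds of 1.15 to 1.30; the control peaks there were as wide, with folds of 1.09 to 1.21. The other 7 also stood among the 10 lowest pairs of similar width. Tiam2, an activator of the GTPase Rac, had 13.6 in vehicle, 4.67 in rotenone and 14.3 in control inside the gene at chr17:3464092-3464538. Elovl6, a fatty acid elongase gene, had 15.6 in vehicle, 5.47 in rotenone and 12.6 in control at chr3:129640212-129640588, 1905 bp from the gene. Mcub, which encodes an inhibitory subunit of the mitochondrial calcium uniporter, lies near it and had 13.9, 5.34 and 11.7 at chr3:129930272-129930716. C1rl, a gene related to the complement protease C1r, had 14.1, 5.53 and 11.004 at a listed start. Jmjd1c, a histone demethylase gene, had 11.7, 4.60 and 10.97. Among pairs of similar width the lowest 10 added Dclk1 at its start (15.0, 5.86 and 13.2), Acvr1, a BMP receptor gene (14.1, 5.52 and 8.06), and Mrps28, a mitochondrial ribosome gene (12.1, 4.78 and 9.77). These pairs were picked by their low ratio, so the control is given beside them as a value only.

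Genes of complex I itself, the target of rotenone, had few peaks of 1 side, and most of their gene end pairs lay above the median of all pairs. Among their strong peaks, 2 of 37 in rotenone were rotenone-only (5.41% against 6.81% of all) and 2 of 28 in vehicle were vehicle-only (7.14% against 8.04%). The rotenone-only ones lay at Ndufa10, 41871 bp from the gene, and at a gene end of Ndufs7 (3.43 in vehicle, 5.16 in rotenone and 3.99 in control). The vehicle-only ones lay 26765 bp from Ndufa8 (6.27, 2.64 and 8.06) and inside Ndufab1 (4.95, 2.64 and 4.84). A matched pair at the gene end was found for 24 of the 36 subunit genes. Their median centred log2 ratio was 0.13, with 19 of 24 above 0, against a median of 0.04 and 55.5% above 0 over all 9690 gene end pairs. Among the 14 of these pairs with widths within 1.5-fold of each other the median was 0.07, with 10 above 0, against 0.02 and 53.0% over the 6953 such gene end pairs. Ndufb4 alone passed 1.5-fold, with 4.68 in vehicle over 768 bp and 6.11 in rotenone over 281 bp. Ndufv1, the NADH-binding subunit, had 8.88 in vehicle, 10.4 in rotenone and 10.1 in control. At the other extreme stood Ndufa12, with 7.29 in vehicle, 4.94 in rotenone and 7.68 in control.

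Genes of TGF-β and SMAD signalling, which drives matrix production in fibroblasts, had many vehicle-only and few rotenone-only peaks among the 16 gene lists. Of their 114 strong vehicle peaks 17 were vehicle-only (14.9%, 9.52 to 22.6, against 8.04% of all), spread over 11 of the 25 genes. Of the 17, 16 were present in control, near the 92.0% of all vehicle-only peaks. Of their 106 strong rotenone peaks 2 were rotenone-only (1.89% against 6.81%). Besides Smad3, Tgfbr3, a TGF-β coreceptor gene, had 2 vehicle-only peaks, such as chr5:107079189-107079585 with 6.55 in vehicle, 2.79 in rotenone and 6.47 in control. Acvr1 had 2 inside the gene, of which chr2:58510153-58510503 had 7.56, 3.36 and 6.80. At Ltbp3, which encodes a protein that binds latent TGF-β, a peak inside the gene had 6.35, 3.24 and 5.63, while a 126 bp peak at an end had 2.50, 5.34 and 3.50. The median centred log2 ratio of the list's 155 pairs was 0.03, beside 0.00 over all pairs, so the list's pairs were centred near those of all genes. Peaks of 1 gene are not independent, so the intervals of the lists are too narrow.

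The stress response and basement membrane lists had vehicle-only shares above the 8.04% of all strong peaks, but both intervals included it. The list of integrated stress response and mitochondrial unfolded protein response genes had 8 of 53 (15.1%, 7.85 to 27.1), all present in control, and 2 of 48 rotenone-only. Asns, the asparagine synthetase gene and a target of ATF4, had 2: inside the gene at chr6:7676312-7676462 with 6.27 in vehicle, 3.51 in rotenone and 6.21 in control, and 14265 bp away with 6.00, no rotenone peak and 5.20. Eif2ak3, which encodes the stress kinase PERK, had 2 inside the gene, the stronger with 6.85, 3.41 and 5.81. Atf3, a stress-induced transcription factor gene, had 1 at 41624 bp with 7.02, 3.30 and 8.21. Basement membrane genes had 12 of 89 (13.5%, 7.88 to 22.1) and 4 of 86 rotenone-only. Of the 12, 8 were present in control, a smaller share than the 92.0% of all vehicle-only peaks. Col4a1, a chain of type IV collagen, held 4 of the 12, and the strongest, chr8:11215340-11215542, had 7.92, 3.03 and 7.31. For vehicle against control the vehicle-only peaks were 1, 0 and 4 in these 3 lists, in the order TGF-β, stress response and basement membrane.

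**Figure D5:**
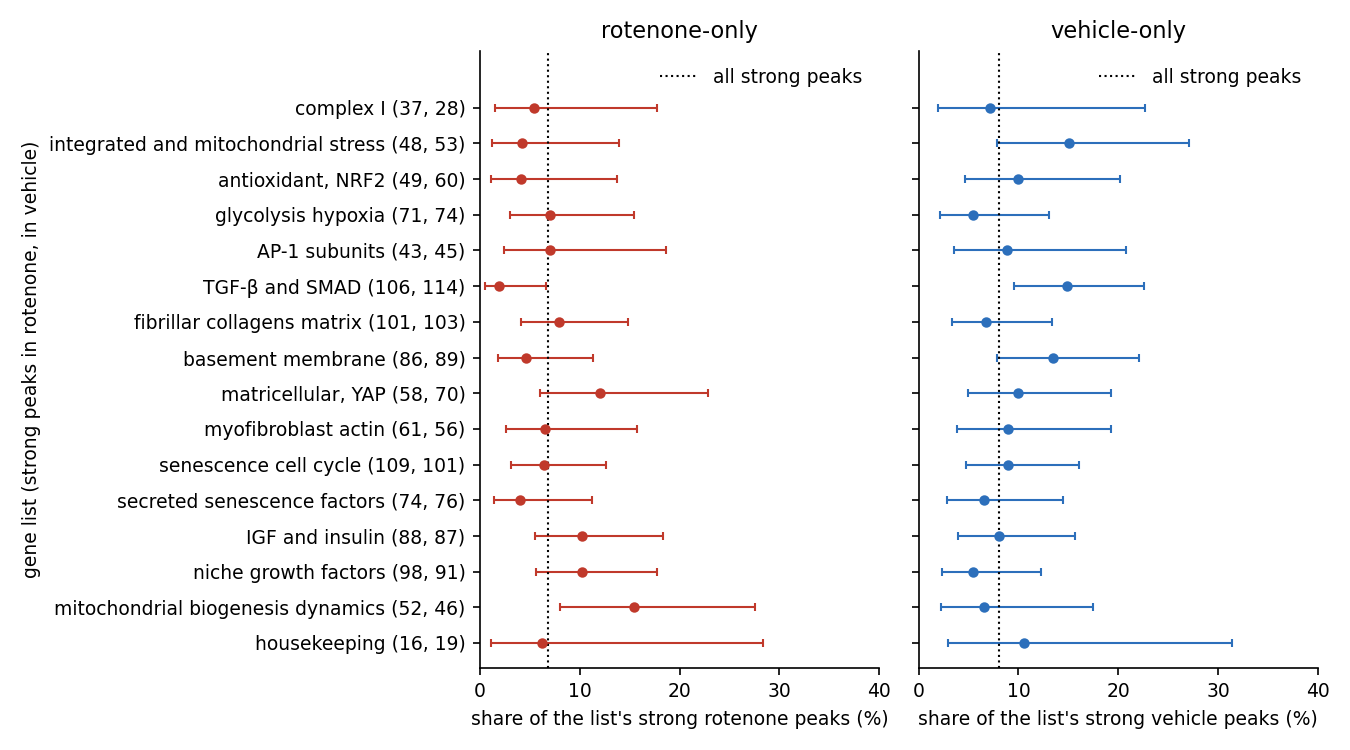
Share of a list's strong peaks (x axis, %) that were rotenone-only (left) or vehicle-only (right) for the 16 gene lists (y axis, with the number of strong peaks in rotenone and in vehicle); lines are 95% Wilson intervals for counting error and the dotted line is the share over all strong peaks, 6.81% and 8.04%. The TGF-β and SMAD list lies at 1.89% on the left and 14.9% on the right.

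The list of mitochondrial biogenesis and dynamics went the other way. It had 8 rotenone-only peaks of 52 (15.4%, 8.01 to 27.5, against 6.81%) and 3 vehicle-only of 46. Ppargc1a, which encodes the regulator of mitochondrial biogenesis PGC-1α, had 2 at 224312 and 263416 bp from the gene, with 2.88 and 3.57 in vehicle, 6.65 and 5.90 in rotenone and 4.49 and 4.31 in control. Opa1, the gene of a GTPase of inner membrane fusion, had 1 inside the gene (3.28, 5.11 and 3.83). Both Ppargc1a regions and the Opa1 region were among the control's 60000, and after leaving out such regions 2 of the 8 remained. Over all rotenone-only peaks 1312 of 2042 remained. The median centred log2 ratio of this list's 63 pairs was -0.03.

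In most of the 16 gene lists the intervals included the 6.81% rotenone-only and 8.04% vehicle-only of all strong peaks. The only exceptions were TGF-β and SMAD genes and, on the rotenone side, mitochondrial biogenesis. Growth factor and niche genes had 10 of 98 rotenone-only (10.2%) and 5 of 91 vehicle-only peaks (5.49%). Fgf10, the gene of a growth factor made by mesenchyme for the overlying epithelium, had 2 rotenone-only, of which the one inside the gene had 2.94 in vehicle, 5.79 in rotenone and 3.51 in control. Fgfr2 had 2 rotenone-only and 1 vehicle-only. Matricellular and YAP genes had 7 of 58 (12.1%) and 7 of 70 (10.0%): Ccn2 and Sparc each had 1 of both kinds. For IGF and insulin genes the counts were 9 of 88 (10.2%) and 7 of 87 (8.05%), with 2 and 3 at Igf1r. At fibrillar collagen and matrix genes they were 8 of 101 (7.92%) and 7 of 103 (6.80%). Col1a2, a chain of type I collagen, had 3 vehicle-only peaks 16081 to 118471 bp away, the strongest with 7.60 in vehicle, 3.27 in rotenone and 4.99 in control. Postn, the periostin gene, had 2 rotenone-only peaks, and the one at chr3:54490353-54490501 had 3.97, 7.80 and 3.79.

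AP-1 subunit genes had 3 of 43 rotenone-only (6.98%) and 4 of 45 vehicle-only peaks (8.89%), the latter including a region 46405 bp from Jun with 7.42 in vehicle, 3.02 in rotenone and 6.28 in control. Antioxidant genes had 2 of 49 (4.08%) and 6 of 60 (10.0%). Of the 6, 2 were at Nfe2l2, which encodes NRF2, and 2 at Txnrd1. Glycolysis and hypoxia genes had 5 of 71 (7.04%) and 4 of 74 (5.41%), with 1 rotenone-only peak each near Hif1a and Epas1. The counts were 7 of 109 (6.42%) and 9 of 101 (8.91%) for cell cycle and senescence genes, and 3 of 74 (4.05%) and 5 of 76 (6.58%) for secreted senescence factors. Myofibroblast and actin genes had 4 of 61 (6.56%) and 5 of 56 (8.93%), and housekeeping genes 1 of 16 and 2 of 19, both at Hprt. Over the 16 lists the median centred log2 ratio of pairs ran from -0.04 to 0.08.

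Genes tied to the question of the series differed by locus. Igf1, a growth factor gene of dermal fibroblasts, had opposite differences at its 2 best ranked vehicle peaks. The peak 70512 bp away, at chr10:87787579-87787927, had 15.3 in vehicle, 8.53 in rotenone and 15.3 in control. Inside the gene, at chr10:87879965-87880440, the folds were 7.04, 9.51 and 7.17. In both places vehicle and control had nearly the same value and rotenone lay apart. Around Junb the 3 strong peaks had folds of 4.15, 4.14 and 4.47 in vehicle, 4.18, 4.24 and 3.91 in rotenone, and 4.02, 4.16 and 4.15 in control. The Sod2 start had 7.54 in vehicle, 7.29 in rotenone and 7.04 in control. At Cdkn2a, the p16 locus, the peak near its end had 6.71 in vehicle, 3.58 in rotenone and 7.07 in control. Their widths were unlike, 855, 135 and 786 bp, and the rotenone peak was the better ranked of 2 there. The one inside the gene had 5.64, 4.51 and 5.49 (276, 148 and 276 bp), and the one 16560 bp away 4.91, 4.07 and 4.72. At Cdkn1a, the p21 gene, 1 peak inside the gene had 6.16, 3.55 and 4.89, and its neighbour 7.22, 7.28 and 6.38.

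Markers of other cell types had gene end peaks at a minority of genes in all 3 libraries. Vehicle and rotenone differed in the counts of myeloid and muscle markers. Some of the peaks at such markers were strong. In vehicle Mitf had 16.7, Krt10 9.10 and Plin1 4.11, and among fibroblast markers Lrig1 had 13.3, Vim 6.74 and Fbn1 4.83. Of 10 myeloid markers, none had a gene end peak among the 60000 in vehicle, 4 had one in rotenone (Adgre1, Cd14, Csf1r and Spi1) and 1 in control (Spi1), and the summed fold was 0, 16.8 and 4.33. Their rotenone folds were 4.57, 3.63, 4.00 and 4.56. Below rank 60000 vehicle had peaks of 3.18, 3.65 and 3.60 at Adgre1, Cd14 and Spi1 and none at Csf1r. Ptprc, Itgam, Lyz2 and Cd68 had no gene end peak among the 60000 of any library. Keratinocyte markers numbered 3 of 12 in each library, endothelial ones 3, 3 and 4 of 10, adipocyte ones 3, 3 and 2 of 8, melanocyte and Schwann cell ones 2, 2 and 3 of 9, muscle ones 3, 1 and 2 of 8 (summed fold 17.4, 5.08 and 11.6), and lymphocyte ones 0 of 9 in vehicle, rotenone and control. The part of such cells in the results was not tested, and a change in the mix of cells and a change within cells cannot be told apart in a bulk library. Fibroblast marker genes had 11 of 93 vehicle-only (11.8%, 6.73 to 19.9) and 4 of 78 rotenone-only peaks (5.13%, 2.01 to 12.5). Both intervals included the shares over all strong peaks, 8.04% and 6.81%. Keratinocyte markers had 3 of 11 vehicle-only (27.3%, 9.75 to 56.6) and 0 of 13 rotenone-only. Each other marker list had at most 2 peaks of either kind.

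The sets of 1 side held few promoters. Of 21262 listed promoters, 8547 lay under a matched pair, 74 under a rotenone-only and 97 under a vehicle-only strong peak. The GC box stood in 46.2% of all promoters, 68.4% of those under a pair, 64.9% (53.5 to 74.8) under a rotenone-only and 57.7% (47.8 to 67.1) under a vehicle-only peak. The CCAAT box stood in 38.2% of all promoters, 44.0% under a pair, 31.1% (21.7 to 42.3) under rotenone-only and 25.8% (18.1 to 35.3) under vehicle-only peaks. Among the promoters under pairs lower in rotenone it stood in 54.1% (46.6 to 61.3) of 172, and among those under pairs higher in rotenone in 42.7% (37.3 to 48.4) of 302. The AP-1 element stood in 6.99% of all promoters, 4.82% under a pair, 6.76% under rotenone-only and 5.15% under vehicle-only peaks. The cAMP response element stood in 3.71% under a pair, 6 of 74 (8.11%, 3.77 to 16.6) under rotenone-only and 3 of 97 under vehicle-only peaks. For the TEAD element the shares under rotenone-only and vehicle-only peaks were 12.2% and 9.28%, beside 13.6% of all, and for the antioxidant response element 13.5% and 17.5%, beside 13.0%. These are matches of letters in 300 bases, and most regions of 1 side lay outside promoters, where no sequence was read.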

How the data were processed

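Per the submitters' processing notes the reads were processed with Bowtie2, bedtools, MACS2 and HOMER on mouse build mm10; their roles, versions and settings, and any correction for the Tn5 insertion site, are not stated. Each library has its own deposited peak list without a header, whose columns were taken as those of the broadPeak format of MACS2. The fold enrichment is the authors' ratio over local background for the single peak. The −log10 p and −log10 q are also the authors' deposited values, and the lowest −log10 q was just above 1. The deposited score was not used. Depth is unknown.

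Starts were converted to 1-based positions. Lists were ranked, reduced to 60000 peaks and matched by 1 bp; pairs were mutual best overlaps. Genes were the 21883 coding genes of RefSeq GRCm38.p6. That table has no strand, so gene ends replace starts except where a start is listed with a promoter sequence, and motifs were searched only in promoters, since no genome sequence was used. Nothing was tested, as each group has 1 library. Members, gene lists and rules were chosen with earlier results of these data known; 495 of 496 list members matched the table.

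Genes named are the 12 per side with most peaks of that side after the control check, the 10 best ranked gene end peaks per side of 150 bp or more, the 10 highest and 10 lowest pairs, up to 4 members per list, complex I genes with a peak of 1 side, and Thbs1, Cdkn2a, Cdkn1a, Igf1, Junb and Sod2; predicted genes were left out. Alternatives were other list lengths, ranking by fold, 50% coverage, peaks of 150 bp or wider, autosomes, a 2500 bp window and the control as partner. Added after seeing the data were pairs of similar width, centring within bins of rank, whole partner lists, the alternatives for shares over 200 kb, the complex I gene end pairs and the myeloid marker values. Software was matplotlib 3.10.9, scipy 1.17.1, pandas 2.3.3 and numpy 2.4.6 under Python 3.11.15.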

Additional observations from a re-analysis of the deposited data

How the results depend on the processing

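No paired analysis was possible because each group has 1 library. The median log2 ratios of fold and of width kept their sign under every alternative run. Counts and shares cannot change sign, and they depended on list length. The order of the 2 sides in gene end share did change. It was 8.33% of rotenone-only and 9.32% of vehicle-only peaks as reported, but 13.6% and 12.4% with 30000 peaks a list, and 8.30% and 8.09% when ranked by fold. Paired values are in the order rotenone, vehicle. With 30000 peaks a list (strong 15000), 828 peaks were rotenone-only and 913 vehicle-only, 75.6% of rotenone and 75.2% of vehicle peaks were matched, gene ends held 13.6% of rotenone-only and 12.4% of vehicle-only peaks, 8.09% of rotenone-only peaks lay over 200 kb from a gene, and the median log2 ratios were -0.22 (fold) and -0.19 (width). With 120000 peaks a list (strong 60000) the counts were 9369 and 9926, the matched shares 57.8% and 57.1%, the gene end share of rotenone-only peaks 4.28%, the shares over 200 kb 12.03% and 6.65%, and the ratios -0.17 and -0.20. With 50% of a peak covered, 4424 peaks were vehicle-only, the matched shares were 69.8% and 63.8%, the gene end shares 10.1% and 16.7%, and the ratios -0.22 and -0.16. With peaks of 150 bp or wider the matched shares were 69.7% and 69.0%, the gene end shares 6.80% and 11.7%, and the width ratio -0.18. Ranking by fold gave matched shares of 70.3% and 69.6% and a gene end share of vehicle-only peaks of 8.09%. A window of 2500 bp gave gene end shares of 13.7% and 15.6%. Against whole partner lists 232 peaks were rotenone-only and 283 vehicle-only. In pairs of similar width 820 were higher and the fold ratio was -0.22. The other 28 values stayed within 1.5-fold (counts) or within the interval of the reported value. Depth is unknown, so how far it limits weak peaks cannot be stated.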
